A study of Mus musculus with 10 samples.

Results

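The muscle genes Ankrd1, Fhl1, Fhl2, Csrp3 and Xirp1, which encode LIM, ankyrin repeat and Xin repeat proteins that respond to stretch, were followed array by array through mouse ventricles of 3 genotypes. They were chosen by symbol, as every probe set annotated to 1 of the 5 symbols alone. The rule found 6 probe sets of 5 genes among 22626 probe sets of 12393 genes, with a pair for Ankrd1 and 1 each for the others. Ventricular RNA was labelled with biotin and hybridised to Affymetrix 3′ expression arrays, 1 array per extract. There were 3 arrays of nontransgenic controls (NTG), 3 of alpha-TM175 and 4 of alpha-TM180 mice, here NTG, TM175 and TM180. In each genotype 1 array carried RNA pooled from 20 hearts (NTG array 3, TM175 array 3 and TM180 array 4) and every other array carried 1 heart. No group was treated, and the labels used here give no age, strain or sex. From background knowledge, each line expresses in heart muscle, under the alpha-myosin heavy chain promoter, an alpha-tropomyosin with a single amino acid change known from familial hypertrophic cardiomyopathy, TM175 being the milder model and TM180 the more severe. The study was set up to describe early stages of mild and severe hypertrophy.

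These proteins sit where the sarcomere and the cell membrane take up tension. Titin, the elastic filament of the sarcomere, binds ankyrin repeat and FHL proteins at its spring segments. Csrp3 lies at the Z disc, where sarcomeres are joined, and Xin proteins lie at the intercalated disc, where heart muscle cells are coupled. Several members also enter the nucleus and act there as cofactors of transcription, and Ankrd1 is widely used as a transcript that rises with stretch and pressure load.

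Values are intensities on a linear scale summarised by the RMA method, in which a probe set's brightness follows the amount of its transcript, and differences are on the log2 scale, where 1 is a doubling. A level of 1 probe set is not set against that of another. The median intensity per array lay between 66.6 and 70.9. The ventricular label was met by bright cardiomyocyte markers, for example Myl2 at 9757 to 10762 and Tnni3 at 7402 to 8962 over the 10 arrays. In limma, a probe set was called at a Benjamini-Hochberg adjusted p under 0.05 over all 22626 probe sets. The labels do not say how the animals were related, and the number of arrays limits the precision. In whole ventricle, fewer cells of a type and less RNA per cell cannot be told apart. TM175 array 1 stood apart from the rest of its group in sex-linked genes. Xist, made by the inactive X chromosome of females, read 988 on that array and 99.5 to 136 on the other 6 single-heart arrays, and the Y-linked Eif2s3y read 7.23 on it. The comparisons with TM175 are therefore also given without it.

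On every TM180 array Ankrd1 and Fhl1 were brighter than on every NTG array, and on every array of either line Fhl2 was dimmer than on every NTG array. TM180 and NTG arrays did not overlap, in either direction, for 10.2% of all probe sets. Every transgenic array lay below every NTG array for 2.21%. Csrp3 in TM180 overlapped its control level, and Xirp1 was scattered. In TM175 Ankrd1, Fhl1 and Xirp1 had no common direction between arrays. None of the 6 probe sets was called in the limma fit of the 3 genotypes in any comparison. The same fit called 0.00884% of all probe sets in TM175 against NTG, 0.504% in TM180 against NTG and 0% in TM180 against TM175. An unadjusted p under 0.05 was reached by 1, 4 and 3 of the 6 probe sets in these comparisons, against 13%, 9.34% and 13.3% of all probe sets. Both Ankrd1 probe sets, which read the same gene, were among the 4 and among the 3. With extract type, pooled or single, added to the model, Fhl2 fell in TM180 and no other member was called in any comparison. That model called 0.862%, 2.02% and 0.0265% of all probe sets in the 3 comparisons.

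**Figure D1:**
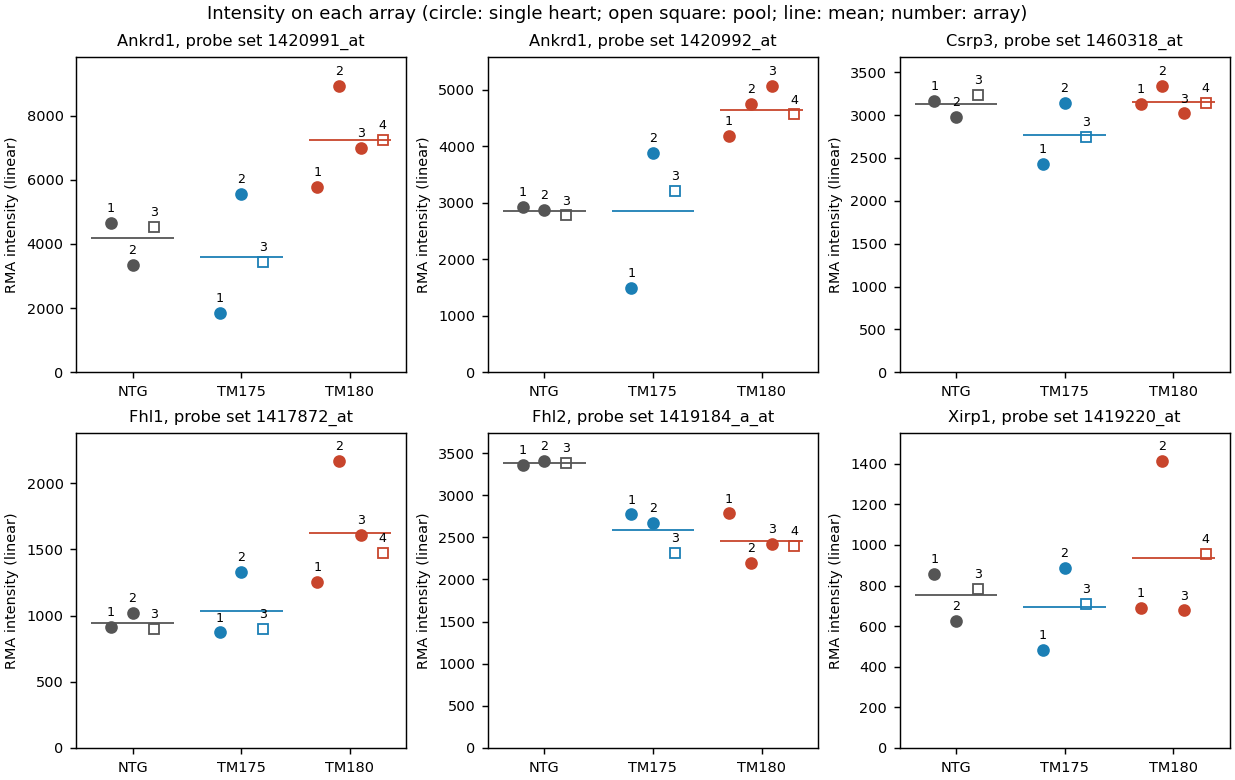
Linear RMA intensity of the 6 probe sets on each of the 10 arrays by genotype, from 0; filled circles are single hearts, open squares are pools, lines are group means and numbers are array numbers. All 4 TM180 arrays lie above all 3 NTG arrays for both Ankrd1 probe sets and for Fhl1, and all 7 transgenic arrays lie below the NTG arrays for Fhl2.

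Ankrd1 encodes the cardiac ankyrin repeat protein, which binds titin and also acts in the nucleus. Its brighter probe set, 1420991_at, read 4648, 3342 and 4526 on NTG arrays 1 to 3. It read 1841, 5546 and 3434 on TM175 arrays 1 to 3, and 5777, 8928, 6981 and 7240 on TM180 arrays 1 to 4. Every TM180 array was brighter than every NTG and every TM175 array, whereas TM175 arrays lay on either side of the controls. Arrays did not overlap, in either direction, for 10.2% of all probe sets in TM180 against NTG and 13.6% in TM180 against TM175. The share with both patterns at once was not counted. The TM180 mean was 7232 ± 1298 (SD, n = 4) against 4172 ± 721 in NTG (SD, n = 3), a fold of 1.73 (95% interval 1.085 to 2.76) that was not called by limma (adjusted p = 0.408). TM175 averaged 3607 ± 1859 (SD, n = 3) and lay at 0.793-fold of NTG (0.481 to 1.31, adjusted p = 0.677). TM180 was 2.18-fold above TM175 (1.37 to 3.48, adjusted p = 0.302), a log2 difference of 1.13 that became 0.71 without TM175 array 1 (adjusted p = 0.602).

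The other Ankrd1 probe set, 1420992_at, gave the tighter control values. It read 2932, 2882 and 2778 in NTG, 1494, 3878 and 3205 in TM175 and 4181, 4750, 5073 and 4565 in TM180. Again every TM180 array lay above all other arrays, and here TM175 arrays 2 and 3 also lay above all NTG arrays while TM175 array 1 lay far below them. The shares of all probe sets without overlap given for 1420991_at apply here too. The fold of TM180 over NTG was 1.62 (1.09 to 2.39, adjusted p = 0.375), and that of TM180 over TM175 was 1.75 (1.18 to 2.59, adjusted p = 0.306), a log2 difference of 0.81 that became 0.39 without TM175 array 1 (adjusted p = 0.602). TM175 over NTG was 0.925 (0.608 to 1.41, adjusted p = 0.88). Set against the NTG pool, the TM175 pool lay at 0.759-fold by 1420991_at and at 1.15-fold by 1420992_at, so that the probe sets pointed opposite ways, and the TM180 pool lay at 1.60-fold and 1.64-fold. Without TM175 array 1, the limma fit called 1420992_at in TM180 against NTG (adjusted p = 0.0281, with 0.362% of all probe sets called). With extract type in the model as well, its log2 difference was 0.68 (adjusted p = 0.00513, with 2.14% of all probe sets called), and that of 1420991_at was 0.78 (adjusted p = 0.06). The fit of NTG and TM180 arrays alone also called it (adjusted p = 0.0368, with 0.243% of all probe sets called). Leaving out TM175 array 1 left the log2 difference of 1420992_at in TM180 at 0.69 and took its SE from 0.26 to 0.10, since all groups share 1 estimate of the spread. In TM175 its removal turned the log2 difference from -0.33 to 0.08 for 1420991_at and from -0.11 to 0.30 for 1420992_at, and neither passed.

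The 250 bases upstream of the Ankrd1 start in the RefSeq annotation are shown because both its probe sets separated TM180 from all other arrays. They lie at chr19:36119845-36120094 (GRCm38.p6, minus strand). Capitals mark 2 matches to the M-CAT letters CATTCC, the element bound by TEAD factors, at bases -210 to -205 and -123 to -118 from the start, and 1 match to the GATA letters AGATAA at -47 to -42. Both strands were searched, and no match overlapped another.

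Ankrd1 upstream: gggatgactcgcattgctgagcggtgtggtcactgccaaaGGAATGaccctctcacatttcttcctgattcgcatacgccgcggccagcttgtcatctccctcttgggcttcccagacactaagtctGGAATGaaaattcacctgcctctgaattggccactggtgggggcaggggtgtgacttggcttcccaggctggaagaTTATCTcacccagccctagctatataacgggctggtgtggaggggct

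Of 32851 upstream windows of 250 bases in the same table, 12.6% held the M-CAT letters and 9.99% the GATA letters. A match is a description of the letters and not of binding.

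Fhl1 encodes a protein of LIM domains that binds the spring region of titin, and it lies on the X chromosome. Its probe set 1417872_at read 912, 1021 and 899.5 in NTG, 873, 1332 and 898 in TM175 and 1257, 2166, 1611 and 1474 in TM180. TM180 arrays all exceeded the NTG arrays, and of the TM175 arrays only array 2 did. TM180 and NTG arrays were without overlap, in either direction, for 10.2% of all probe sets. The TM180 mean of 1627 ± 388 (SD, n = 4) against 944 ± 66.9 in NTG (SD, n = 3) was a 1.69-fold difference (1.26 to 2.27, unadjusted p = 0.00237 by limma, adjusted p = 0.144). In TM175 the mean was 1034 ± 258 (SD, n = 3) and the fold 1.08 (0.786 to 1.47, adjusted p = 0.846). TM180 was 1.57-fold above TM175 (1.17 to 2.11, adjusted p = 0.305), although TM175 array 2 at 1332 lay above TM180 array 1. Without TM175 array 1 the log2 difference between the lines went from 0.65 to 0.54, and that of TM175 from NTG went from 0.11 to 0.21. In TM180 the limma adjusted p became 0.0537 once extract type entered the model, and 0.0434 once TM175 array 1 was also left out. Xist was also raised on the TM175 pool (414) and the TM180 pool (394) but not on the NTG pool (149). Of the 3 arrays with high Xist, TM175 array 1 had an Fhl1 value of 873, below every NTG array. TM175 array 3 read 898, close to the 899.5 of NTG array 3, and TM180 array 4 read 1474, above every NTG array. The part of sex in the Fhl1 values was not tested.

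RefSeq gives a pair of Fhl1 starts, and the upstream window shown held the only match, a CArG box, the element bound by serum response factor, at -102 to -93. It lies at chrX:56779433-56779682 (plus strand), and capitals mark the box.

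Fhl1 upstream: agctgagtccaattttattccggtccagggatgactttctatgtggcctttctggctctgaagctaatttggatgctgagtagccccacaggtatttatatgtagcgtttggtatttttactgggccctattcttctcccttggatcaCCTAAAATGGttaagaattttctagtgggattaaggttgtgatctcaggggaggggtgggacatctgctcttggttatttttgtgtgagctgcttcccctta

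Fhl2 encodes the related LIM protein of heart muscle, which binds the cardiac spring segment of titin and restrains calcineurin signalling. Its probe set 1419184_a_at read 3361, 3402 and 3386 in NTG, the tightest controls among the members. It read 2772, 2670 and 2316 in TM175 and 2784, 2198, 2426 and 2402 in TM180. All 7 transgenic arrays were dimmer than all 3 NTG arrays, a pattern shown by 2.21% of all probe sets, and the lines overlapped each other. TM180 averaged 2452 ± 244 (SD, n = 4) against 3383 ± 20.7 in NTG (SD, n = 3), which was 1.38-fold lower (log2 difference -0.47 ± 0.10 SE, adjusted p = 0.0835). TM175 averaged 2586 ± 239 (SD, n = 3), which was 1.31-fold lower (-0.39 ± 0.11 SE, adjusted p = 0.207). With extract type in the model Fhl2 fell in TM180 (log2 difference -0.48, adjusted p = 0.0279), where 0.548% of all probe sets fell, and had an adjusted p of 0.0792 in TM175. With array weights Fhl2 was called in TM175 (-0.34, adjusted p = 0.0308, with 23.7% of all probe sets called) and in TM180 (-0.43, adjusted p = 0.0345, with 3.33% called). Between the lines the log2 difference was -0.08, with a 95% interval of -0.30 to 0.15 (limma adjusted p = 0.723). The interval holds 0, and true differences of any size within it remain possible on these arrays. Without TM175 array 1 the log2 differences were -0.44 for TM175 from NTG and -0.03 between the lines.

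Fhl2 was the member that was lower in both lines, and its upstream windows are shown for that reason. RefSeq gives a pair of starts, with windows at chr1:43196762-43197011 (start A) and chr1:43163962-43164211 (start B), both on the minus strand. Capitals mark a CArG box at -96 to -87, the GATA letters at -62 to -57 and a MEF2 site at -31 to -22 before start A, and a CArG box at -31 to -22 before start B.

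Fhl2 start A upstream: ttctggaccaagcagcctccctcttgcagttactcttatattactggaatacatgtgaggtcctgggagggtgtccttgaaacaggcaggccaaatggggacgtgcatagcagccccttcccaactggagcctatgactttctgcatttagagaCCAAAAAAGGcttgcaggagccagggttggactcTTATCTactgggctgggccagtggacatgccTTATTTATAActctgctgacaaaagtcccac

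Fhl2 start B upstream: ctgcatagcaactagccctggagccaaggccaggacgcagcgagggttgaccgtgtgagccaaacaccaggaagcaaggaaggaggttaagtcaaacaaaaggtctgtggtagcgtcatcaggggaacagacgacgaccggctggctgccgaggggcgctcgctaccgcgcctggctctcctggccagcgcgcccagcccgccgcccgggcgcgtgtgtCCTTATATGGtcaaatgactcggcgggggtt

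A CArG box stood in 1.47% and a MEF2 site in 2.92% of all upstream windows. Thus Fhl1, which was brighter in TM180, and Fhl2, which was dimmer, each had a window with a CArG box. The windows of Csrp3 held none of the 4 motifs. Xirp1 was not searched here.

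Csrp3 encodes the muscle LIM protein of the Z disc, whose loss in mice leads to dilated cardiomyopathy. Its probe set 1460318_at read 3168, 2981 and 3233 in NTG, 2427, 3144 and 2749 in TM175 and 3128, 3342, 3020 and 3137 in TM180. TM180 overlapped NTG, with means of 3157 ± 135 (SD, n = 4) and 3127 ± 131 (SD, n = 3) and a fold of 1.01 (0.866 to 1.18, adjusted p = 0.999). TM175 averaged 2773 ± 359 (SD, n = 3), at 0.882-fold of NTG (0.749 to 1.04, adjusted p = 0.486), with TM175 arrays 1 and 3 below all controls and array 2 among them. TM180 over TM175 was 1.14-fold (0.982 to 1.33, adjusted p = 0.411). Without TM175 array 1 the log2 difference of TM175 from NTG went from -0.18 to -0.09, and that of TM180 from TM175 went from 0.19 to 0.10.

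Xirp1 encodes the Xin actin-binding repeat protein of the intercalated disc. Its probe set 1419220_at read 859, 624 and 782 in NTG, 482, 889 and 711 in TM175 and 689, 1412, 677 and 955 in TM180. The 3 genotypes overlapped, and TM180 array 2 alone stood at 1412. The TM180 mean was 934 ± 344 (SD, n = 4) against 755 ± 120 in NTG (SD, n = 3), a fold of 1.19 (0.786 to 1.80, adjusted p = 0.951). TM175 lay at 0.899-fold (0.577 to 1.40, adjusted p = 0.843). TM180 over TM175 was 1.32-fold (0.874 to 2.01, adjusted p = 0.501). Without TM180 array 2 the log2 difference of TM180 over NTG went from 0.25 to 0.03. Without TM175 array 1 that of TM175 over NTG went from -0.15 to 0.09, and that of TM180 over TM175 went from 0.40 to 0.16.

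**Figure D2:**
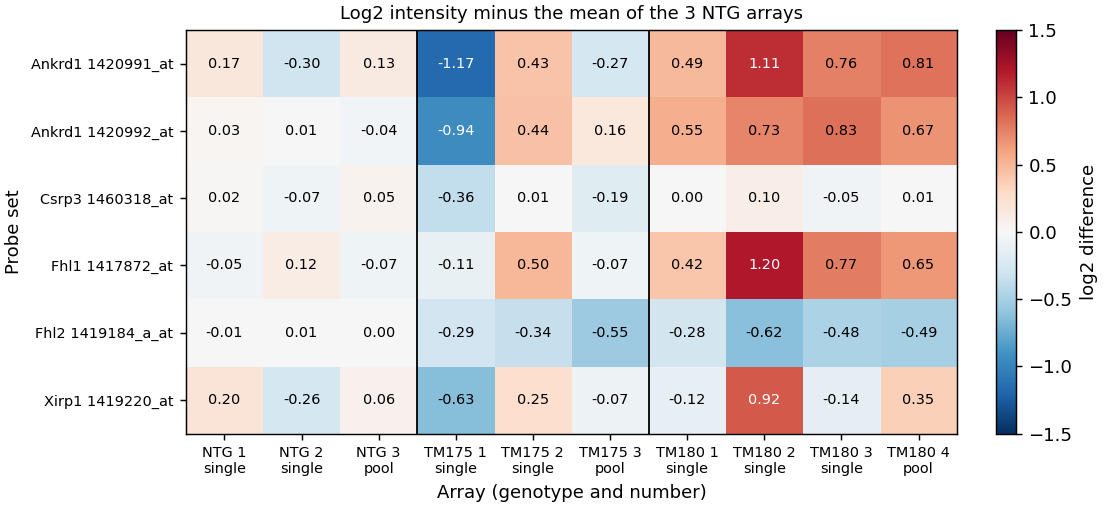
Log2 intensity of each probe set (rows) on each array (columns) minus the mean of the 3 NTG arrays, with the value printed in each cell, red for brighter and blue for dimmer. TM175 array 1 is blue in all 6 rows, from -0.11 to -1.17, and TM180 array 2 holds the strongest red for Fhl1 (1.20), Ankrd1 1420991_at (1.11) and Xirp1 (0.92).

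Single arrays moved several members at once. TM175 array 1 was the dimmest of the 10 arrays for 5 of the 6 probe sets, all but Fhl2, whereas it was the dimmest for 14.1% of all probe sets. Ankrd1 stood there at 0.446-fold and 0.522-fold of the NTG geometric mean by its probe sets, Xirp1 at 0.644-fold, Csrp3 at 0.777-fold and Fhl1 at 0.926-fold. TM180 array 2 was the brightest array for 4 of the 6 probe sets and the dimmest for Fhl2, and it was the brightest for 7.73% of all probe sets. So the array with the most Ankrd1 by 1420991_at, Fhl1, Csrp3 and Xirp1 had the least Fhl2. Within TM180, array 1 had the least Fhl1 (1257) and the most Fhl2 (2784). Within TM175, array 1 had the least Fhl1 (873) and the most Fhl2 (2772), but the other arrays did not continue an inverse order. TM175 array 2 had the most Fhl1 (1332) with an Fhl2 of 2670. TM175 array 3 had an Fhl1 of 898, close to array 1, with the least Fhl2 (2316). Within NTG the order was another, as array 2 had the most Fhl1 (1021) and the most Fhl2 (3402).

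**Figure D3:**
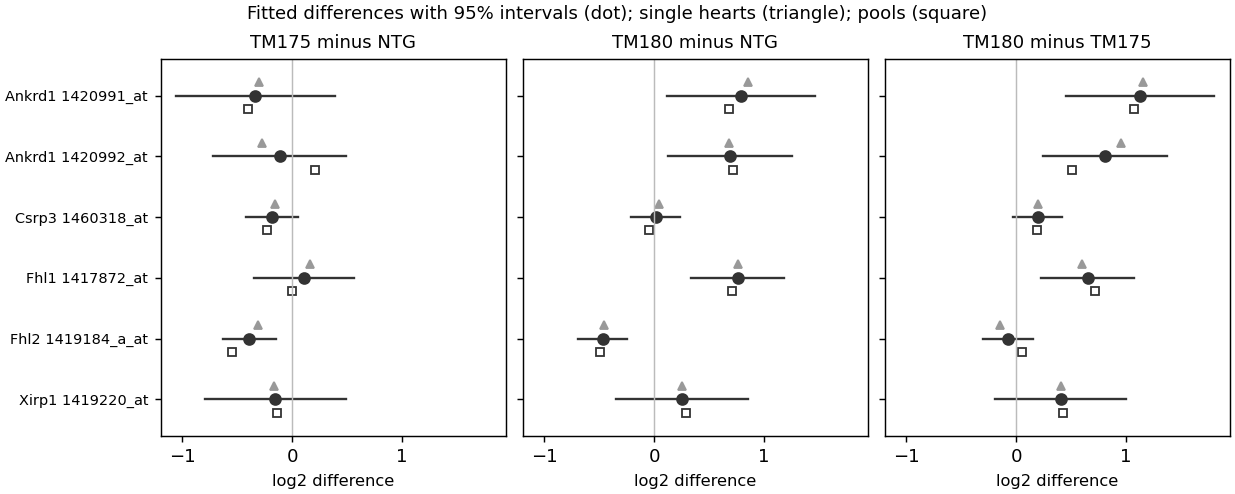
Fitted log2 differences of the 6 probe sets in the 3 comparisons (dots) with 95% intervals from limma (lines), beside the difference between single hearts alone (triangles) and between pools alone (squares). In TM180 minus NTG the intervals of both Ankrd1 probe sets and of Fhl1 lie above 0 and that of Fhl2 lies below 0, before adjustment over all probe sets.

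Pooled and single hearts gave like values in TM180 against NTG. For Fhl1 the log2 difference was 0.71 between pools and 0.76 between single hearts, for Fhl2 it was -0.50 and -0.46, and for Ankrd1 1420991_at it was 0.68 and 0.85. In TM175 against NTG they differed more for Fhl2, Ankrd1 1420992_at and Fhl1. They did not differ more for Csrp3, Xirp1 and Ankrd1 1420991_at, the last with -0.40 between pools and -0.30 between single hearts. Fhl2 had -0.55 between pools and -0.31 between single hearts, whereas Ankrd1 1420992_at had 0.21 and -0.27, of opposite sign, and Fhl1 had -0.0029 and 0.16. In TM180 against NTG 4 of the 6 probe sets had arrays that did not overlap, against 10.2% of all probe sets. The Ankrd1 pair, which reads the same gene, was among the 4. The median log2 difference of the 6 was 0.47 beside -0.01 over all probe sets. In TM175 against NTG only Fhl2 did not overlap, against 16.5% of all probe sets, and the medians were -0.17 and 0.04. Between the lines the Ankrd1 pair did not overlap, against 13.6% of all probe sets, and the medians were 0.53 and -0.03. The members were bright, at percentiles 95.5 to 99.8 of mean level. Over the probe sets above the median level the median log2 difference was 0.01 in TM180 against NTG. It was -0.04 in TM175 against NTG and 0.07 between the lines. The TM175 and TM180 comparisons share the NTG arrays.

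Beside Ankrd1, the load genes Nppa, the atrial natriuretic peptide gene, and Acta1, the skeletal alpha-actin gene, were also low on TM175 array 1. Nppa read 521, 5478 and 3822 on TM175 arrays 1 to 3 and 635 to 906 in NTG. Acta1 read 733, 4024 and 2857 in TM175 and 1562 to 2356 in NTG. Myh7, the slow myosin heavy chain gene, did not follow this order: it read 6319, 2529 and 5063 in TM175, so that the array with the least Ankrd1 had the most Myh7. Myh7 in NTG read 325 to 350.

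**Figure D4:**
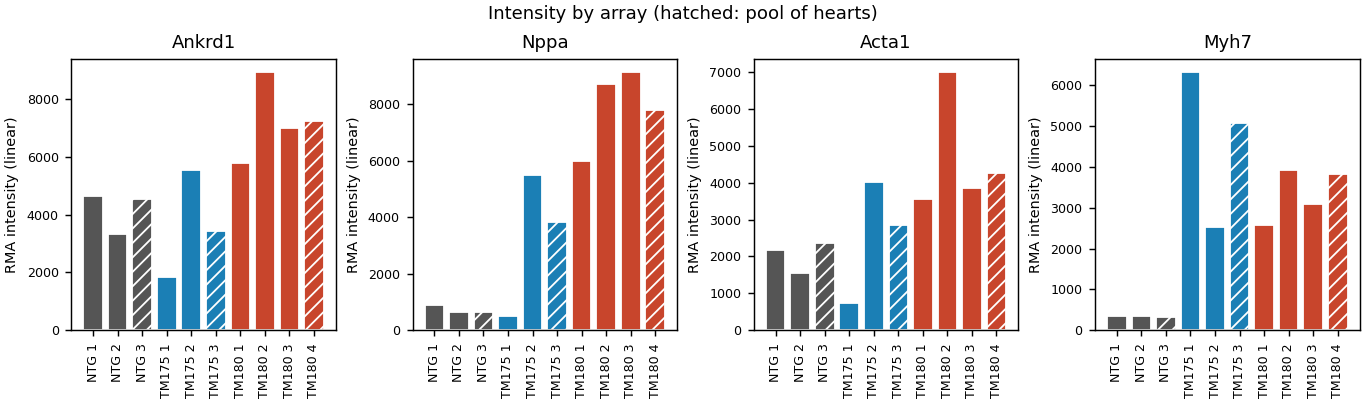
Linear RMA intensity of Ankrd1 (probe set 1420991_at), Nppa, Acta1 and Myh7 on each array, in bars from 0, hatched for pools. TM175 array 1 has the lowest bar for Ankrd1 (1841), Nppa (521) and Acta1 (733) and the highest for Myh7 (6319).

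The wider pathway was described by 6 gene lists, with the brightest probe set for each gene, taking those of settled level first. Of 24 other LIM protein genes of muscle 0 were called in the limma fit of the 3 genotypes, with 5, 6 and 3 at an unadjusted p under 0.05 in TM175 against NTG, TM180 against NTG and TM180 against TM175. Of all probe sets 13%, 9.34% and 13.3% reached such a p. With extract type in the model, which called 2.02% of all probe sets in TM180 against NTG, 2 of the LIM genes rose and 0 fell in TM180. These were Csrp1, the smooth muscle relative of Csrp3 (log2 difference 0.50 ± 0.11 SE, adjusted p = 0.0453), and Lpp, a LIM protein of focal adhesions (0.53 ± 0.11 SE, adjusted p = 0.0359). Csrp1 averaged 192 ± 27.5 in TM180 (SD, n = 4) and 135 ± 8.77 in NTG (SD, n = 3). Every TM180 array, at 161 to 218, lay above the NTG arrays, at 129 to 145. Arrays of these groups did not overlap for 10.2% of all probe sets. The TM175 arrays, at 162 to 169, also lay above the NTG arrays. The closest relatives of the members, named for kinship, were not called: Fhl3 had a log2 difference of 0.03 in TM180 (adjusted p = 0.998), Csrp2 of 0.06 (0.998) and the skeletal muscle ankyrin repeat gene Ankrd2 of -0.07 (0.982).

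Of 17 measured genes of titin and its Z disc partners, 4 ankyrin repeat and Xin relatives, 17 costamere and integrin genes and 19 transcription factors linked to these genes, 0 were called in any comparison by either limma model. Of these 57 genes 6, 6 and 7 had an unadjusted p under 0.05 in the 3 comparisons, against 13%, 9.34% and 13.3% of all probe sets. Titin itself was at 0.07 in TM180 (adjusted p = 0.96) and at -0.03 in TM175 (adjusted p = 0.894). Among the titin and Z disc genes 2 of 17 lay above 0 in TM175 (median -0.14) and 10 of 17 in TM180 (median 0.06), and among the costamere genes 3 of 17 (median -0.07) and 12 of 17 (median 0.15). Of all probe sets 57.9% lay above 0 in TM175 and 48.5% in TM180. These lists hold many bright genes, and over probe sets above the median level the median was -0.04 in TM175 and 0.01 in TM180. The share above 0 among those brighter probe sets was not counted. Of 21 measured load-induced transcripts 2 rose in TM175, Myh7 (12.8-fold, adjusted p = 0.00164) and Postn, the periostin gene (3.14-fold, adjusted p = 0.0368). In TM180 3 rose, Postn (5.04-fold, adjusted p = 0.00125), Myh7 (9.75-fold, adjusted p = 0.00129) and Nppa (10.8-fold, adjusted p = 0.0483), and 0 fell in either line. With extract type in the model 7 of the 21 rose in TM180, and Ankrd1, often grouped with them, was not among the calls of that model (adjusted p = 0.212 and 0.187 for its probe sets). That model called 2.02% of all probe sets in TM180 against NTG. The limma fit of the 3 genotypes called 0.00884% in TM175 against NTG and 0.504% in TM180 against NTG.

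Markers of other cell types were read beside the members. Of 7 fibroblast markers 2 rose in TM180 against NTG in the limma fit of the 3 genotypes, the collagen genes Col1a1 (adjusted p = 0.015) and Col1a2 (adjusted p = 0.0394), and 5 rose with extract type in the model, while 0 were called in TM175 by either model, with 4 at an unadjusted p under 0.05. Their summed intensity lay at 4732 to 7134 in NTG, 6460 to 10140 in TM175 and 8179 to 12440 in TM180, so that TM180 did not overlap NTG and TM175 did. Of 6 smooth muscle markers 0 were called in any comparison by either model, with 0, 3 and 1 at an unadjusted p under 0.05 in TM175 against NTG, TM180 against NTG and TM180 against TM175. Their sum lay at 4445 to 5119 in NTG, 3646 to 5319 in TM175 and 5268 to 7274 in TM180. Without Des, also a heart muscle gene, it lay at 1703 to 1975, 1740 to 2164 and 1680 to 2700, and the groups overlapped. Of 6 endothelial markers 0 were called in any comparison by either model, with 1, 2 and 0 at an unadjusted p under 0.05 in these comparisons. Their sum lay at 1783 to 1905 in NTG, 1840 to 2504 in TM175 and 1980 to 2140 in TM180, above NTG on every TM180 array. Beside these counts, 13%, 9.34% and 13.3% of all probe sets had an unadjusted limma p under 0.05 in the 3 comparisons. In TM180 against NTG the limma fit of the 3 genotypes called 0.504% of all probe sets, and that with extract type 2.02%. The 2 measured red blood cell markers summed to 200 to 230 in NTG, 287 to 297 in TM175 and 178 to 198 in TM180, without overlap between groups. The dimmer marker, Hba-a1, read only 21.55 to 30.05, below the median of every array, so that most of the sum came from the other. The pattern is thus mainly that of 1 gene. Of these markers 1, the heme synthesis gene Alas2, was called, and only between the lines once extract type entered the limma model (log2 difference -0.70, adjusted p = 0.0388). The part of these cells in the Ankrd1 and Fhl1 values was not tested. Skeletal muscle markers stayed dim, with 7 of 8 markers of settled level summing to 252 to 305 over all arrays. Of 6 atrial markers Nppa, which is also a load gene, rose in TM180, and once extract type entered the limma model so did Dkk3 (adjusted p = 0.0196). The other 5 without Nppa summed to 308 to 457 in NTG, 408 to 473 in TM175 and 368 to 844 in TM180, with overlap. Myl7 among them read 89.3, 34.2, 455 and 337 on TM180 arrays 1 to 4. It read 37.2 to 151 in NTG and 39.3 to 151 in TM175. Of the 6 atrial markers 3 had a log2 difference above 0 in TM180 against NTG. The part of atrial tissue in the member values was not tested. Of 9 cardiomyocyte markers 8 had a settled level, and their sum lay at 55140 to 59760 in NTG, 53640 to 55840 in TM175 and 51810 to 56770 in TM180.

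The genes most alike in pattern were taken, for each member, as the 3 with the highest Pearson r of log2 intensity over the 10 arrays, which share genotype groups, among the brighter part of the array. For Ankrd1 1420991_at these were Tmem144 (r = 0.967), Arf1 (0.962) and Txnrd1 (0.961). For Fhl1 they were Enah (0.977), Rrp12 (0.968) and Dap (0.955). Enah, an actin regulator of the intercalated disc, averaged 752 in NTG, 784 in TM175 and 1248 in TM180. For Fhl2 they were Acadm (0.983), Ift81 (0.976) and Upk3b (0.962). Acadm, the medium-chain enzyme of fatty acid oxidation, averaged 3602 in NTG, 2717 in TM175 and 2715 in TM180. For Csrp3 they were Etf1 (0.974), Slc39a14 (0.969) and Itgb1 (0.932), and for Xirp1 Hspb1 (0.941), Tnfrsf12a (0.938) and Itga5 (0.933). Itgb1 and Itga5 encode integrin chains, and Hspb1 a small heat shock protein.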

How the data were processed

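Probe set intensities on a linear scale were deposited by the authors, made with RMA per the submitters' processing notes, version not stated. Intensities of 1000 or more carried a point before the last 3 digits. Values were multiplied by 1000 where their digits, the other arrays of the probe set or a level below that of any plainly written probe set required it: 7803 of 226900 values in 1052 probe sets. For 229 tested probe sets, none of them a member, the level stayed unsettled and values were kept as written. Control probe sets (64) were left out, and 20380 of 22626 carried 1 symbol. Log2 values were fitted with limma 3.58.1 in R 4.3.3, with 1 mean per genotype over all 10 arrays, two-sided, adjusted by Benjamini-Hochberg, and the fit and the reading were tested on simulated data. Tables and plots were made with matplotlib 3.10.9, pandas 2.3.3 and numpy 2.4.6 under Python 3.11.15.

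Symbols came from the platform annotation, updated through gene IDs to RefSeq (GRCm38.p6), and 4 of the 5 genes matched the RefSeq upstream table. Named were all member probe sets, up to 4 called genes per list, reference genes Nppa, Nppb, Myh7, Acta1, Xist and Eif2s3y, and 3 genes of like pattern per member. Fhl3, Csrp2, Ankrd2, Ttn, Myl2, Tnni3, Col1a1, Col1a2, Des, Alas2, Hba-a1, Myl7 and Dkk3 were added after their values were seen. The members and lists were chosen with earlier results of these data known. Replicate numbers mark no shared animal or batch in the labels. Alternatives were extract type as covariate, single hearts only, a replicate block, each array left out, TM175 array 1 left out with extract type, renewed quantile normalization, median centring, brighter probe sets only, only the groups compared, array weights, an intensity trend and the values as written.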

Additional observations from a re-analysis of the deposited data

How the results depend on the processing

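The count of called member probe sets was 0 in each comparison and became 1 in TM175 against NTG with array weights. In TM180 against NTG it became 1 with extract type, 1 with array weights, 1 with only the groups compared and 3 with TM175 array 1 left out and extract type in the model, and it ranged from 0 to 1 over the fits leaving out 1 array. Called under these alternatives were Fhl2 with array weights (-0.34 in TM175 and -0.43 in TM180), Fhl2 with extract type (-0.48), Fhl2 and Fhl1 with TM175 array 1 left out and extract type (-0.47 and 0.74), and Ankrd1 1420992_at with that setting and with only the groups compared. In TM175 against NTG, with TM175 array 1 left out and extract type in the model, the differences turned to 0.10 for Ankrd1 1420991_at, 0.32 for 1420992_at and 0.087 for Xirp1. Ankrd1 1420992_at turned also with renewed quantile normalization (0.022) and array weights (0.17). Leaving out 1 array at a time gave -0.71 to 0.080 and -0.39 to 0.30 for the Ankrd1 probe sets, -0.090 to 0.21 for Fhl1 and -0.35 to 0.087 for Xirp1 in TM175, and -0.021 to 0.038 for Csrp3 in TM180. With values as written, where the mark splits a probe set, the differences in TM180 were -5.88 for Fhl1 and -2.24 for Xirp1, and -5.99 and -2.09 against TM175. With the replicate block, which leaves TM180 array 4 without a partner, 0 members were called and Ankrd1 1420991_at had 0.79 in TM180. Same-numbered arrays correlated from -0.53 to 0.71 in their deviations from the group means. Number 3 is a pool in NTG and TM175 and a single heart in TM180. Pools correlated with each other at 0.71 to 0.81, single hearts numbered 1 at -0.11 to 0.32 and those numbered 2 at 0.32 to 0.49. These values cannot say whether the numbers pair the arrays. Of 441 alternative values 412 kept direction and side of the threshold. The cause of these changes was not tested. The number of arrays and, for pools, the lack of a spread limit all values.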
